A study of Neurospora crassa with 10 samples.

Results

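Of 9730 protein-coding genes in the gene annotation of the corrected Neurospora crassa assembly nc14, 131 (1.35%) carried 3 or more transcripts. The members were chosen by their number of annotated transcripts alone: a gene entered when at least 3 different transcript identifiers stood among its exon records. Together the 131 genes held 419 of 10785 protein-coding transcripts (3.89%), and every transcript was compared with every other of its gene, which gave 474 pairs. Just inside the threshold lay 108 genes with 3 transcripts, followed by 20 with 4 and 3 with 5. Just outside it lay 767 genes with 2 transcripts (7.88%), and 8832 genes (90.8%) had 1.

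Eukaryotic genes can give several transcripts through alternative transcription starts, alternative 3′ ends and alternative splicing. When introns are removed, an intron may be kept, a donor (the 5′ splice site) or an acceptor (the 3′ splice site) may be exchanged for another, or an exon may be passed over. Intron retention is the commonest form known in fungi, whose introns are short. Such changes alter the protein where they touch the coding sequence, and otherwise only the untranslated regions (UTRs), which bear on mRNA stability, location and translation.

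The annotation belongs to a chromosome conformation capture (Hi-C) study of the filamentous fungus N. crassa, a haploid mold. In situ Hi-C was performed on germinated conidia, unsynchronized asexual cells, of the wild type strains N150 and N3752, using DpnII, MseI or both enzymes. The 10 datasets differ in strain, enzyme, PCR cycle number and merging, and no gene was altered in either strain. The annotation is shared by all of them and has no value per library, so there were no replicates and no error, and all values below describe 1 set of gene models with no test. The annotation does not say in which strain, tissue or condition a transcript was seen, or how abundant it was. Annotated transcript number is also what placed a gene in the group, and how well a gene had been sampled when it was annotated cannot be told apart from how many transcripts it makes.

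On a list of 31 clock and light genes, 3 had 3 or more transcripts (9.68%, beside 1.35% of all genes). They were frq, wc-1 and ck-1a, which encode core parts of the circadian clock and its light input, and they differed in different places. The list was chosen with earlier results of these data known, so this share is not read as a result and was not tested. The clock gene frq (NCU02265) encodes the negative element of the clock and is known to give a long and a short protein through splicing around its start codon. It lay on the plus strand of LG VII (nc14, positions 3131640 to 3136464) and had 3 transcripts with 1 shared start and 1 shared end. T0 and T1 had the same coding sequence of 2967 bp (989 codons), and T2 had 2670 bp (890 codons). The T2 start codon lay 297 bp (99 codons) downstream of that of T0 and T1, in the same frame. T2 removed an intron of 185 bp that T0 and T1 kept, and the start codon of T0 and T1 lay within that intron. T0 and T1 differed only in an acceptor in the 5′ UTR, 157 bp apart, so that their 5′ UTRs were 1055 and 898 bp against 1010 bp in T2. All 3 had a 3′ UTR of 302 bp.

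The gene wc-1 (NCU02356; LG VII, plus strand, 2767393 to 2773846) encodes the blue-light photoreceptor and GATA-type transcription factor of the White Collar complex. It had 4 transcripts and 1 coding sequence of 3501 bp (1167 codons). Their 5′ UTRs were 1757, 772, 469 and 469 bp and their 3′ UTRs 1126, 1033, 166 and 166 bp in T0 to T3. The 4 transcripts began at 4 positions, 0, 582, 1071 and 868 bp from the outermost start. T2 and T3 shared their length of 4139 bp because each opened with a first exon of 24 bp joined to the same acceptor. T0 kept all of the 5′ UTR introns of the others, which were 403, 217 and 420 bp long.

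The gene ck-1a (NCU00685; LG I, plus strand, 7752189 to 7756235) encodes a casein kinase I that phosphorylates FRQ. Its transcripts shared a start codon and ended at 3 different stop codons. The coding lengths were 1152, 1089 and 1083 bp, or 384, 363 and 361 codons. T0 and T1 joined the same donor to acceptors 13 bp apart, and T2 kept the intron that the others removed. The 3′ UTRs were 1541, 635 and 1740 bp. On the same list sub-1 had 2 transcripts and 27 genes had 1, among them wc-2, frh and vvd. None of 18 heterochromatin and histone methylation genes and none of 10 RNA silencing and RNA decay genes had 3. Beside the 1.35% of all genes, a count of 0 in lists this short is not read as a result. In them cdp-2, qip and qde-2 had 2 transcripts, beside 7.88% of all genes. A gene symbol was held by 22.1% of members, 17.9% of genes of 2 transcripts and 10.8% of genes of 1, and since the lists were matched by symbol, the part of this in their counts was not tested.

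**Figure D1:**
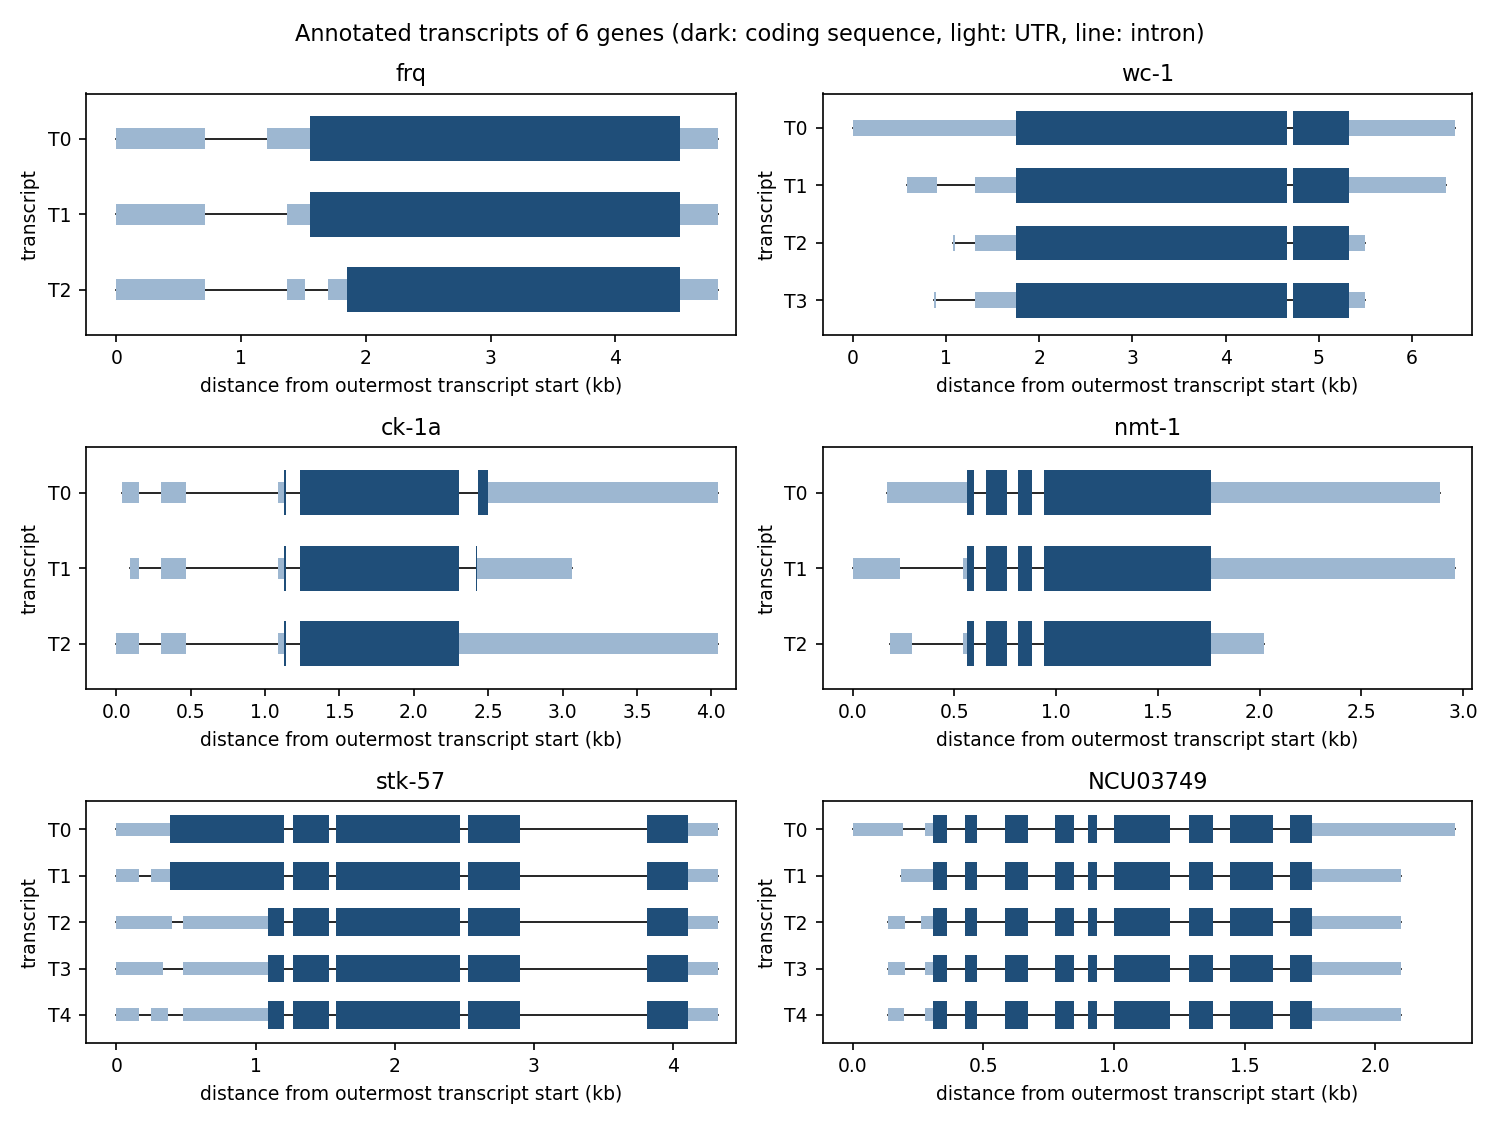
Exon and intron structure of every annotated transcript of frq, wc-1, ck-1a, nmt-1, stk-57 and NCU03749, by distance from the outermost transcript start (kb, in the direction of transcription). Dark blocks are coding sequence, light blocks UTR and lines introns. The coding block of frq T2 begins 297 bp later than those of T0 and T1, and the coding blocks of wc-1, nmt-1 and NCU03749 are the same in each transcript.

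Members differed most often at their first exon. The first exon differed in 378 of 474 pairs (79.7%) and in at least 1 pair of 119 of 131 genes. In 64 pairs (13.5%) only its outer end moved. In 314 pairs (66.2%) its inner end differed, which need not change the transcript start. Among these were 102 pairs (21.5% of all, 45 genes) whose first exons did not overlap at all. The last exon differed in 214 pairs (45.1%, 80 genes). In 113 pairs (23.8%) only its outer end moved, and in 101 (21.3%) its inner end differed, which need not change the transcript end. The last exons lay apart in only 10 pairs (2.11%) of 4 genes. A retained intron separated 259 pairs (54.6%, 99 genes), meaning that an intron of 1 transcript lay wholly inside an exon of the other. Splice-site choice separated 203 pairs (42.8%, 101 genes), meaning that introns of both shared exactly 1 end. Skipped exons were rare, with 22 pairs (4.64%) in 15 genes. A pair can be in several classes.

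Every transcript of every member had its own chain of introns. A chain can also differ because a transcript starts or ends inside or beyond an intron of another. In 224 pairs (47.3%) a retained intron was present without splice-site choice inside 1 exon or exon skipping. In 133 pairs (28.1%) such a splice-site choice was present alone, and in 34 (7.17%) both were. For 61 pairs (12.9%) none of these held, as where alternative first exons lead to different first introns.

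Genes of 2 transcripts showed a similar order of classes. The first exon differed in 77.3% of their 767 pairs, a retained intron was found in 59.5% and a difference in the coding sequence in 50.8%. Splice-site choice was less frequent there (30.2%), as were first exons that did not overlap (14.2%) and skipped exons (2.09%). The last exon differed in 54.9% of those pairs, above the 45.1% of members. Pairs of 1 member share transcripts and are not independent, so these shares are given side by side without a test.

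**Figure D2:**
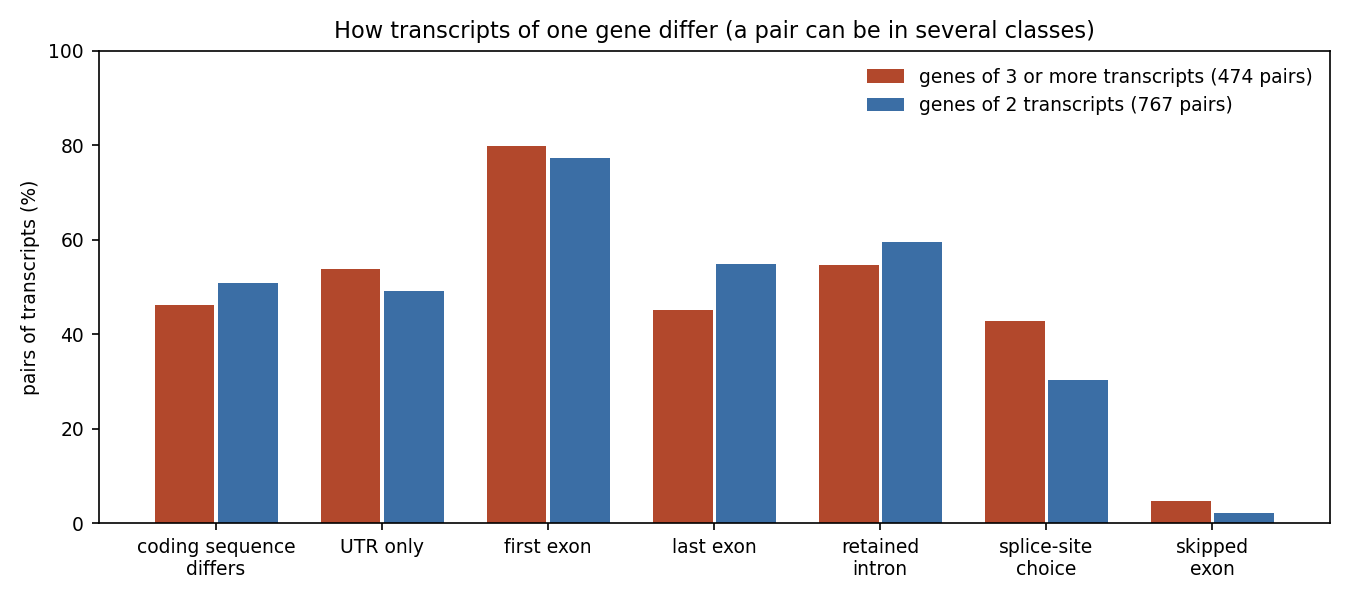
Percentage of transcript pairs in each class of difference, for genes of 3 or more transcripts (474 pairs) and of 2 transcripts (767 pairs). Classes overlap. First-exon differences are the tallest bars in both groups at 79.7% and 77.3%, and splice-site choice is 42.8% against 30.2%.

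Starts moved further than ends. Transcript starts differed in 264 member pairs (55.7%), by a median of 245 bp and at most 2815 bp. Transcript ends differed in 171 pairs (36.1%), by a median of 105 bp and at most 2883 bp. In 38 genes all transcripts shared 1 start and in 64 genes all shared 1 end. The starts of 34 genes spread over more than 500 bp and those of 11 over more than 1000 bp, whereas the ends of 10 genes spread over more than 500 bp. The 2815 bp belonged to fsd-1 (NCU09915), which encodes a transcription factor of female sexual development and was chosen after its values were seen. Its 3 transcripts began 0, 1056 and 2815 bp from the outermost start, used 3 start codons and shared their stop codon, with coding lengths of 1878, 1674 and 1464 bp. Each shorter coding sequence lay in frame within the longer ones.

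The same contrast held for the UTRs, since the 5′ UTR length ranged more widely than the 3′ UTR length in 103 of 131 members. The median range within a gene was 261 bp for the 5′ UTR and 16 bp for the 3′ UTR. The 3′ UTR had the same length in every transcript of 56 genes, the 5′ UTR in 5. UTR length also changes with moved start or stop codons and with splicing, so these ranges are not those of transcript starts and ends. The widest 5′ UTR ranges were those of NCU01659, NCU05791, NCU01679, wc-1 and NCU00196. In the first 3, T0 had no annotated 5′ UTR, while the longest of the gene was 1618 bp in NCU01659, 1512 bp in NCU05791 and 1475 bp in NCU01679. NCU00196 had 1274, 175 and 0 bp in T0, T1 and T2. The range of 4 of these 5 genes was therefore set by a transcript whose first annotated base was that of its start codon. A UTR of 0 bp may stand for an end that was not annotated.

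The widest 3′ UTR ranges were in NCU02793, NCU06930, syn-1, NCU05199 and NCU00497. In NCU02793 and NCU06930 all transcripts shared 1 end, while their stop codons differed. The gene syn-1 (NCU02460) had 3′ UTRs of 552, 1867, 552 and 552 bp, so that T1 alone ran on, with an added 3′ UTR intron. T1 and T2 of syn-1 also carried an internal exon of only 5 bp. NCU05199 had no 3′ UTR in T0 and T1 and 1205 bp in T2. In NCU00497 only T1 had a 3′ UTR, of 1170 bp. That gene also had first exons that never overlapped, of 145, 290 and 24 bp.

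Of the 474 pairs, 255 (53.8%) had the same coding sequence and differed in UTRs only, and in 52 of 131 genes all transcripts did. The remaining 79 genes had 2 (50 genes), 3 (26) or 4 (3) coding sequences, and 219 pairs (46.2%) differed there. The start codon alone moved in 102 of these pairs (46.6%) and the stop codon alone in 43 (19.6%). Neither moved in 69 (31.5%), so that the change was internal, and both moved in 5 (2.28%). The median difference in coding length was 166.5 bp where only the start codon moved, 201 bp where only the stop codon moved and 78 bp where neither did.

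Where coding sequences differed, most of the protein was kept. The shortest coding sequence of a gene was at the median 90.7% of its longest over the 79 genes. It was over 90% in 41 genes and under 80% in 20. In 187 of 219 pairs (85.4%) all shared coding bases were read in the same frame, and in 129 (58.9%) the shorter coding sequence lay wholly within the longer one in frame. Such nesting was found in 72 of the pairs in which only the start codon moved (70.6%) and in 2 of those in which only the stop codon moved. Genes of 2 transcripts had nearly the same split, with 48.5% for the start codon alone, 31.0% for neither end and 19.2% for the stop codon alone, and 89.7% of their pairs shared no base in another frame.

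**Figure D3:**
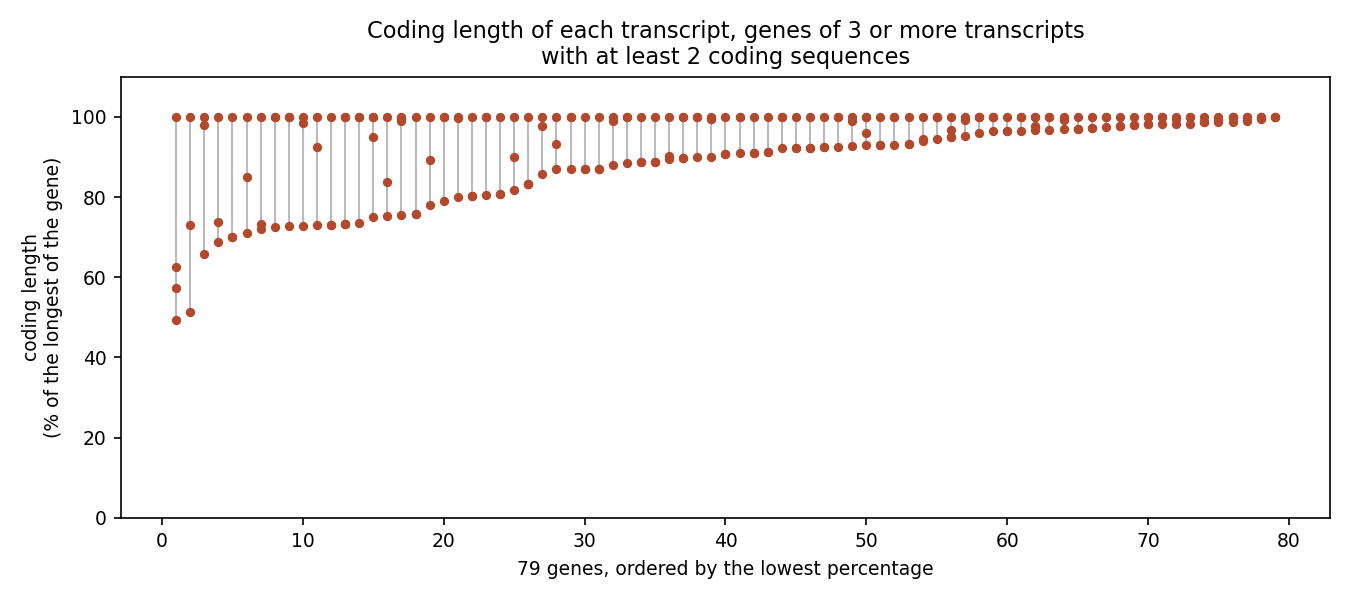
Coding length of each transcript as a percentage of the longest of its gene, for the 79 genes with at least 2 coding sequences, ordered by their shortest. Points are transcripts and a line joins those of 1 gene. The median gene reaches down to 90.7%, and 20 genes reach below 80%.

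The 5 genes with the largest differences in coding length were NCU02793, NCU06930, NCU07187, NCU05199 and NCU09975. NCU02793 (LG I, plus strand, 9306439 to 9340643) had the longest coding sequence of all 9730 genes and 5 transcripts. The coding lengths were 32217, 32127, 32127, 31926 and 24339 bp in T0 to T4. T0 and T4 were alike except for 1 acceptor 11 bp apart, and T4 ended at an earlier stop codon with a 3′ UTR of 8349 bp. The last exon junction of T4 lay 6377 bases past its stop codon. T0 shared 31965 coding bases with T1 and read 29673 of them in the same frame.

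In NCU06930 the coding lengths were 6606, 5532 and 4977 bp. T1 removed an intron of 88 bp that T0 kept, and its stop codon came earlier. The corresponding lengths in NCU07187 were 4782, 3507 and 3450 bp. There T1 removed an intron of 80 bp and began 1278 bp further on, while T2 removed an intron of 275 bp and ended earlier. T1 and T2 of this gene shared only 54.3% of the shorter coding sequence in frame, the lowest share of any member pair. NCU05199 had 3789, 3711 and 2496 bp. NCU09975 had 3954, 3897 and 2880 bp, where T2 kept an intron of 59 bp that the others removed and T1 and T2 removed one of 57 bp, whose length is a multiple of 3.

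Every pair of NCU06076 differed in the coding sequence, with lengths of 456, 285, 261 and 225 bp. All 4 transcripts shared start and stop codon, and retained introns of 195, 231 and 171 bp, an acceptor 36 bp apart and a donor 60 bp apart made the differences. Each of these 5 lengths is a multiple of 3, and all shared coding bases were in frame. NCU04807 was built alike, with coding lengths of 2232, 2232, 2145 and 2073 bp set by introns of 87 and 159 bp and a donor choice of 72 bp. In NCU01465, T0 to T2 encoded 1500 codons and T3 encoded 1440, through a donor choice of 180 bp. The 4 coding lengths of NCU09866 were 6060, 6057, 5916 and 5856 bp, with T2 and T3 starting 1427 bp downstream. The gene mig-10 (NCU04791) had 1008, 1008, 957 and 756 bp, with T3 using a donor 217 bp away from that of T1 and ending earlier.

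A kinase gene had the most transcripts of any member with a symbol. The gene stk-57 (NCU10853; LG IV, minus strand, 1181775 to 1186099), named as a serine-threonine kinase, had 5 transcripts with 1 start and 1 end. T0 and T1 encoded 879 codons, and T2, T3 and T4 encoded 644, beginning 705 bp downstream in frame. Their 5′ UTRs were 384, 296, 1006, 941 and 888 bp. The differences came from retained introns of 88, 148, 113 and 83 bp and from donors 30, 35 and 65 bp apart. All of them lay upstream of the later start codon.

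In contrast, NCU03749 (LG V, plus strand, 2676340 to 2678643) had 5 transcripts and 1 coding sequence of 846 bp in 9 exons. Its 5′ UTRs were 221, 121, 113, 95 and 91 bp, with 4 retained introns of 60 to 86 bp, donor choices of 4, 4 and 8 bp, an acceptor choice of 18 bp and 3 starts over 186 bp. NCU00089 had 4 transcripts that differed only in the donor of 1 intron, which gave 5′ UTRs of 835, 736, 694 and 602 bp before the same 1698 bp of coding sequence. The gene un-7 (NCU00651) had 5′ UTRs of 1024, 959, 877 and 698 bp before the same 1236 bp of coding sequence. Its transcripts began 0, 62, 51 and 256 bp from the outermost start, and they differed in 5 retained introns of 54 to 169 bp and an acceptor choice of 80 bp. NCU03142 skipped a 5′ UTR exon, present at 232 bp in T0 and at 109 bp in T1 and absent from T2.

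The thiamine synthesis gene nmt-1 (NCU09345; LG II, plus strand, 4177546 to 4180504) is known for a riboswitch in its 5′ UTR that binds thiamine pyrophosphate and governs its splicing. It was chosen after its values were seen. The coding sequence was 1026 bp in all 3 transcripts. T0 kept the 5′ UTR intron, with a 5′ UTR of 394 bp. T1 and T2 removed it from donors 60 bp apart, as introns of 310 and 250 bp, with 5′ UTRs of 253 and 127 bp. The 3 transcripts also had 3 starts, 169, 0 and 186 bp from the outermost one, and T1, with the longer intron, began furthest upstream. Their 3′ UTRs of 1124, 1195 and 257 bp ranged more widely than the 5′ UTRs.

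Some other members with symbols, chosen in the same way, differed upstream of a single coding sequence. The polarity kinase gene pod-6 (NCU11235) had 3 acceptors for 1 intron and 5′ UTRs of 876, 763 and 752 bp. The calmodulin-dependent kinase gene camk-1 (NCU09123) had 5′ UTRs of 768, 617 and 562 bp, T0 keeping an intron that T1 and T2 removed from donors 55 bp apart. The glycogen synthase gene gsy-1 (NCU06687) had 5′ UTRs of 551, 510, 369 and 151 bp. The histone variant gene hH2Az (NCU05347) differed at the other side, with 3′ UTRs of 2677, 2490 and 2486 bp after 429 bp of coding sequence. It had 2 introns in the 3′ UTR, and its transcripts overlapped NCU05345 and NCU05346 on the other strand.

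Counted once per gene, members had 206 retained introns, 77 alternative donor choices, 64 alternative acceptor choices and 20 skipped exons. Donor and acceptor choices were counted here where the exchanged sites lay in 1 exon, 1 for each stretch between 2 sites. The 4 transcripts of NCU00089 thus gave 6 donor choices at 1 intron. A retained intron whose donor or acceptor varied was likewise counted more than once. Of the retained introns, 120 (58.3%) lay in the 5′ UTR, 74 (35.9%) touched coding sequence and 12 lay in the 3′ UTR. Of the 141 donor and acceptor choices, 100 lay in the 5′ UTR and 34 touched coding sequence. In genes of 2 transcripts the 5′ UTR held 46.2% of 481 retained introns and 52.7% of 205 donor and acceptor choices. Such genes have 1 pair each, so the repeated counting in members does not arise there.

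Lengths that keep the reading frame were commoner within coding sequence. The length was a multiple of 3 for 56.8% of retained introns that touched coding sequence and for 29.2% of those in the 5′ UTR. For donor and acceptor choices these shares were 67.6% and 27.0%. In genes of 2 transcripts the shares were 60.9% and 33.3% for retained introns and 59.6% and 32.4% for donor and acceptor choices. An annotated coding sequence is an open frame by definition, so the place and the length are not independent measures.

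The shortest shifts had a preferred size at each kind of site. A distance of 4 bp was the most frequent between alternative donors, with 13 of 77 (16.9%) and none at 3 bp. Between alternative acceptors, 3 bp was the most frequent distance, with 8 of 64 (12.5%), ahead of 4 at 4 bp and 4 at 6 bp. In genes of 2 transcripts, 12 of 95 donor choices were 4 bp (12.6%) and 23 of 110 acceptor choices 3 bp (20.9%). A member with more than 2 sites at an intron gave several distances, which a gene of 2 transcripts could not. Distances over 20 bp were the majority at both kinds of site in members, where 54 donor choices (70.1%) and 33 acceptor choices (51.6%) spanned over 20 bp.

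**Figure D4:**
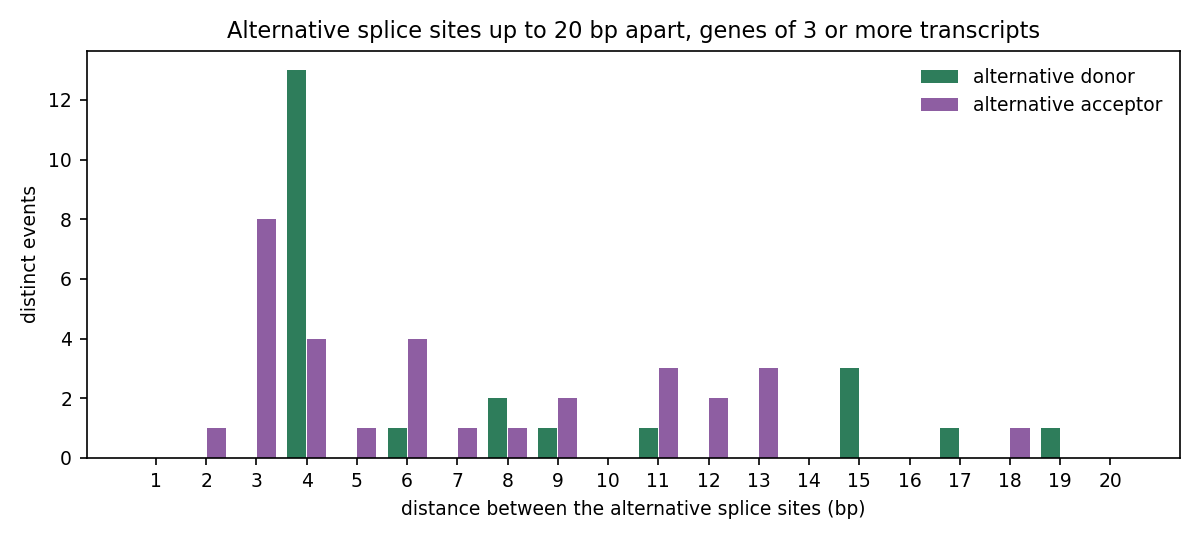
Number of distinct donor and acceptor choices in genes of 3 or more transcripts by distance between the exchanged sites (bp), up to 20 bp. A choice is a stretch between exchanged sites. Donors have their tallest bar at 4 bp (13 events) and acceptors at 3 bp (8 events), and 54 donor and 33 acceptor choices over 20 bp are not drawn.

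Introns used in every transcript of a member were the shortest. These 272 introns (40.4% of 674) had a median of 68 bp, the 206 introns retained in another transcript had 97.5 bp, and the other 196 had 170.5 bp. In genes of 2 transcripts the order was the same, with medians of 71, 84 and 116 bp. All 14643 introns of genes of 1 transcript had a median of 75 bp.

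An exon junction well past the stop codon is the feature that marks a transcript for nonsense-mediated decay in many eukaryotes. In members, 20 of 419 transcripts (4.77%) from 13 genes had a junction more than 50 bases past the stop codon, NCU02793 T4, NCU09975 T2, syn-1 T1 and all 3 of hH2Az among them. In genes of 2 transcripts 7.04% of transcripts had one, and in genes of 1 transcript 1.87%. As a share of genes, 9.92% of members and 11.2% of genes of 2 transcripts had at least 1 such transcript. Decay itself was not measured.

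Members had higher medians of coding length, exon number and UTR length than genes of 1 transcript, and stood closer to genes of 2. In the first-numbered transcript, the median coding length was 1671 bp in members, 1500 bp in genes of 2 transcripts and 1239 bp in genes of 1. The exon number was 4, 3 and 2, the 5′ UTR 470, 391 and 216.5 bp, and the 3′ UTR 455, 419 and 265 bp. The first-numbered transcript had an intron in the 5′ UTR in 42.0%, 27.0% and 7.61% of genes, and other transcripts were not counted there. The transcripts are numbered by coding length, which never rose with the number in any of the 131 genes, so the first has the longest coding sequence by construction. Where a gene had 1 coding sequence, transcript length never rose with the number either, in all 52 such members and 377 such genes of 2. There T0 is no shorter than the others, so its kept introns and longer UTRs partly follow from the numbering. With the last-numbered transcript instead, the median coding length of members was 1500 bp against 1419 bp in genes of 2. The 5′ UTR was then 454 against 411 bp and the 3′ UTR 455 against 410 bp. With the transcript of most exons, members and genes of 2 transcripts both had a median of 4 exons. Among genes with 3 or more exons, members and genes of 2 transcripts both had a median of 4 exons, with 5′ UTRs of 422 and 404.5 bp and 3′ UTRs of 446 and 438 bp.

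Annotated UTRs differed between the groups too. Both UTRs were present in the first-numbered transcript of 94.7% of members, 94.1% of genes of 2 transcripts and 73.4% of genes of 1. Among genes with both, the median 5′ UTR was 521.5, 409 and 308 bp. The share of genes with 3 or more transcripts was higher with more exons in the first-numbered transcript. It went from 0.167% of genes with 1 exon to 0.633%, 1.43%, 2.45% and 4.05% of those with 2, 3, 4 and 5 or more. The few members that had a transcript with no intron were NCU00060, NCU00968, NCU01428 and NCU11000. NCU00060 was 1 of 23 members, frq, ck-1a and pod-6 among them, in which the last exon differed in every pair. In NCU00060, frq and pod-6 all transcripts shared 1 end, so only the inner end of the last exon differed. T0 of NCU00060 was 1 exon of 1790 bp and T1 and T2 removed a 5′ UTR intron of 92 or 100 bp.

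**Figure D5:**
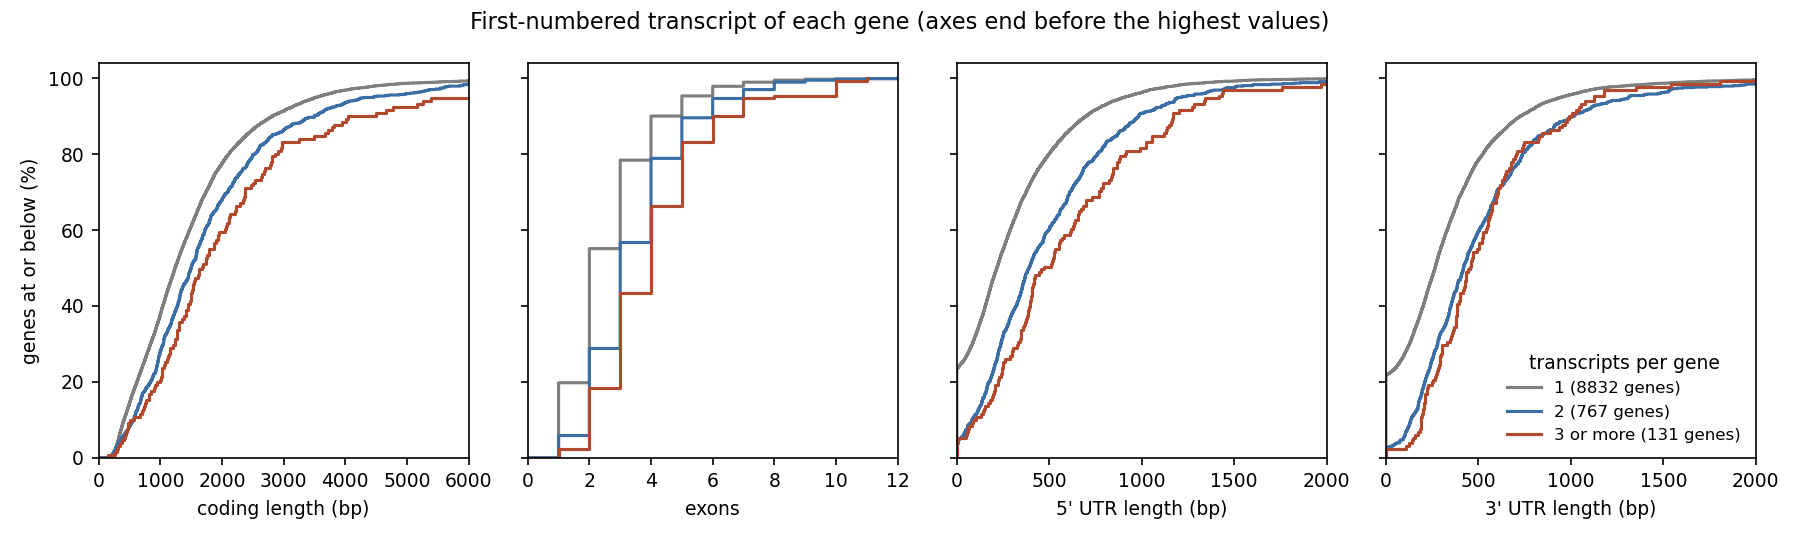
Cumulative percentage of genes at or below a coding length, exon number, 5′ UTR length and 3′ UTR length (bp or count) of the first-numbered transcript, for genes of 1, 2 and 3 or more transcripts. Axes end before the highest values. The curve of genes with 3 or more transcripts lies to the right of genes with 1 in each panel at the median, at 1671 against 1239 bp of coding sequence and 470 against 216.5 bp of 5′ UTR, and the 3′ UTR curves of 2 and of 3 or more cross.

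Members were found on all 7 linkage groups. Their share of genes was highest on LG VII (22 genes, 2.10%) and LG I (38 genes, 1.62%) and lowest on LG IV (12 genes, 0.808%). Of the 131, 68 lay on the plus strand and 38 (29.0%) overlapped another protein-coding gene, beside 26.3% and 22.5% of genes of 2 and of 1 transcript. Only NCU10015 and NCU15835, neighbors on LG VII that overlapped by 30 bp, did so on the same strand. In all, 9 members were neighbors of another member. NCU08997, NCU08998 and NCU08999 stood in a row on LG III, NCU01679 and NCU01678 met tail to tail on LG II, and NCU03219 and NCU03220 were divergent on LG I with 1999 bp between them.

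Last exons that lay apart were found in NCU03768, where T0 and T1 ended in an exon of 272 bp beyond the last exon of T2. Their coding length was 1785 bp as in T2, and T3, which removed an intron of 89 bp that the others kept, had 1764 bp. The 29 members with a symbol also included tca-2 and tca-5 of the tricarboxylic acid cycle, tom7 and tob55 of mitochondrial protein import, and his-7 and lys-5 of amino acid synthesis. In his-7 (NCU00150), 3′ UTRs of 435, 208 and 435 bp accompanied 257, 257 and 237 codons.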

How the data were processed

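In situ Hi-C libraries of N. crassa were labeled with the strain, enzyme and PCR cycle number, and the 10 datasets were listed from those labels. The authors deposited 1 gene annotation of nc14, with 81158 records of features, each with positions in bp, 1-based and with no normalization. In it 0 columns hold values of single samples, so neither sequencing depth nor replicate error applies. How gene models were moved to nc14, and the evidence behind each transcript, are not given in the sources used here.

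Coding length excludes the stop codon. Introns were the gaps between exons, and UTR length counts exonic bases only. Pairs of transcripts were classed from exon and coding coordinates in the direction of transcription. A place in the 5′ UTR lies before the start codon of each transcript in which the bases are exonic. A RefSeq table of assembly NC12 gave symbols, and all 131 genes had the same number of transcripts there. No sequence was used.

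Members, gene lists and the rule for named genes were chosen with earlier results of these data known. The rule takes the 10 genes with most transcripts, the 5 with the widest range of coding, 5′ UTR and 3′ UTR length, the gene with the largest share of pairs in each class, and list members. Of the 36, 27 and 16 symbols on the clock and light, heterochromatin and RNA lists, 31, 18 and 10 were matched. Alternatives included other counts of transcripts, end tolerances, pair sets, reference transcripts and a minimum of 4 transcripts. Scripts were tested on simulated gene models and used Python 3.11.15, numpy 2.4.6, pandas 2.3.3, scipy 1.17.1 and matplotlib 3.10.9.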

Additional observations from a re-analysis of the deposited data

How the results depend on the processing

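No paired analysis was possible because gene models carry no replicate numbers. Among the alternative values, 81 stayed within the 95% binomial interval of the share or within 1.5 times the count or ratio. A further 12 moved more and 0 changed direction. The interval treats pairs as independent, which those of 1 member are not, so it is a yardstick and not an error. Some of the 81 could not move. The first-numbered transcript has the longest coding sequence, and the tolerance of 50 bp acts on outer ends only. The ratio of median exons, members over genes of 2 transcripts, is among the 81. It fell from 1.33 to 1 with the transcript of most exons and among genes with 3 or more exons. The 131 members became 29 when transcripts were counted by distinct coding coordinates and 23 with a minimum of 4 transcripts, and stayed 131 by distinct exons or intron chains. The first exon differed in 83.7% of pairs against the first-numbered transcript only and in 86.0% in genes of 4 or more transcripts, beside 79.7%. The last exon differed in 36.3% when outer ends had to be over 50 bp apart and in 51.0% against the first-numbered transcript only, beside 45.1%. In genes of 4 or more transcripts, a retained intron was present in 59.3% of pairs, the start codon moved in 37.3% of coding pairs (48.9% in all members, with the pairs in which both ends moved) and neither end moved in 44.8%. Splice-site choice was 35.4% when the exchanged sites had to lie in 1 exon, an alternative chosen after seeing the data. With 2 or more transcripts, the heterochromatin list had 1 gene and the RNA silencing and decay list 2. Lists by product name were not run, since the table gives no products. Depth is unknown, and a transcript that was not annotated was not seen here.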
